A study of Mus musculus with 8 samples.

Results

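Of the 65955 transcript clusters measured on a whole-transcript mouse array, 2787 carried no gene symbol in the array annotation and were nevertheless well above the floor in ordinary 2-cell embryos. They were selected on their measured level, as clusters without a symbol whose mean log2 level on the 2 non-manipulated arrays was 8 or more. A transcript cluster is the array's unit of measurement, a stretch of genome with several probes that are summarised to 1 value. The array held 33206 clusters without a symbol, and the members were 8.39% of them. They were also 26.2% of the 10626 clusters of any kind that reached level 8. Members are called here by their array id, such as TC0700003533, in which 07 is the chromosome and the last 8 digits a serial number, with a fixed suffix left out. Because the level was used to choose them, levels on the non-manipulated arrays and differences from those arrays are given as descriptions only, and tests are restricted to comparisons among the other 3 groups.

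The embryos came from the cross labelled B6C3F1 x CD1, were fertilized in vivo, and were collected as zygotes from stimulated females. Each of 8 arrays measured 1 pool of 100 embryos after 28 h of culture, and each of 4 groups had 2 pools. The age label reads 24 h in vitro culture and 1 dpc, which differs from the 28 h of the protocol. Non-manipulated embryos were left in the incubator, and Trim21 mRNA embryos were injected with that mRNA at the pronuclear stage. The full treatment joined this mRNA with anti-COPS3, an antibody to a subunit of the COP9 signalosome, and the antibody-alone embryos received anti-COPS3 without the mRNA. TRIM21 recognises antibodies inside cells and ubiquitinates them, which leads the bound protein to degradation, so the design asked what follows when COPS3 protein is removed around the first cleavage. Cleavage was labelled normal in the non-manipulated and Trim21 mRNA groups, and stunted with many undivided zygotes in both antibody groups. There was no control antibody. The injection text describes the other groups but not antibody alone, whose content is known from its label. Both pools of a group came from 1 day and each group had its own day, so day and group cannot be told apart, and the p-values below measure the spread between pools of a day.

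The late 2-cell stage is when the mouse embryo takes over from the mRNA stored in the egg. At this stage the genome is transcribed widely, including repeated elements and stretches between genes, and many transcripts of this stage have no standard gene name. Most maternal mRNA is being degraded at the same time, while mitochondrial RNA, transcribed from both strands of a circular genome, is carried over in large amounts from the egg.

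The labels and the tissue were checked on named clusters. Trim21 read 6.27 and 5.65 on the non-manipulated arrays, 9.77 and 10.14 with Trim21 mRNA, 10.40 and 10.30 for full-treatment pools, and 6.76 and 6.37 with antibody alone. Cops3 mRNA lay between 8.85 and 10.00 on all 8 arrays and was lower than with Trim21 mRNA in both antibody groups, by -0.76 ± 0.18 with the full treatment and -1.13 ± 0.18 with antibody alone (limma adjusted p = 0.033 and 0.012). Since the method acts on protein, its mRNA does not check the treatment. All 13 measured markers of the 2-cell embryo and all 18 of the oocyte store reached level 8 in at least 1 group, against 0 of 10 sperm markers and 0 of 7 blood markers. Of the measured markers, 4 of 12 for cumulus cells and 2 of 7 for oviduct epithelium reached it. The median over all clusters ran from 4.75 to 5.29 per array and was highest on the full-treatment and first antibody-alone arrays. Values had a lower spread there, with a standard deviation over clusters of 2.27 to 2.45 on those 3 arrays against 2.60 to 2.71 on the other 5.

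The members were brighter than named clusters chosen at the same threshold. Their median level on the non-manipulated arrays was 10.80, with quartiles of 9.19 and 13.47, against 10.21, with quartiles of 9.03 and 12.16, for the 7376 clusters that had exactly 1 symbol and also reached level 8. The top of the range held most of the contrast. Level 16 was reached by 395 members, or 14.2%, and by 237 one-symbol clusters, or 3.21%. Level 19 was reached by 163 members, or 5.85%, and by 19 one-symbol clusters, or 0.258%. Over distinct profiles, a profile being the 8 values of a cluster, the medians were 10.50 for members and 10.23 for one-symbol clusters, and the shares 12.3% and 3.09% at level 16 and 3.05% and 0.234% at level 19. Reaching level 8 at all was rarer without a symbol, since 23.6% of all one-symbol clusters did so. At the threshold, TC0100000860 and TC0100001097 were just inside at 8.00, and TC0700004600 and TC1000001394 were just outside at 7.995. TC0100000860 read 7.80 and 8.20 on the non-manipulated arrays and 9.85 and 10.35 with the full treatment, whereas TC1000001394 stayed between 7.73 and 8.52 on all arrays.

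**Figure D1:**
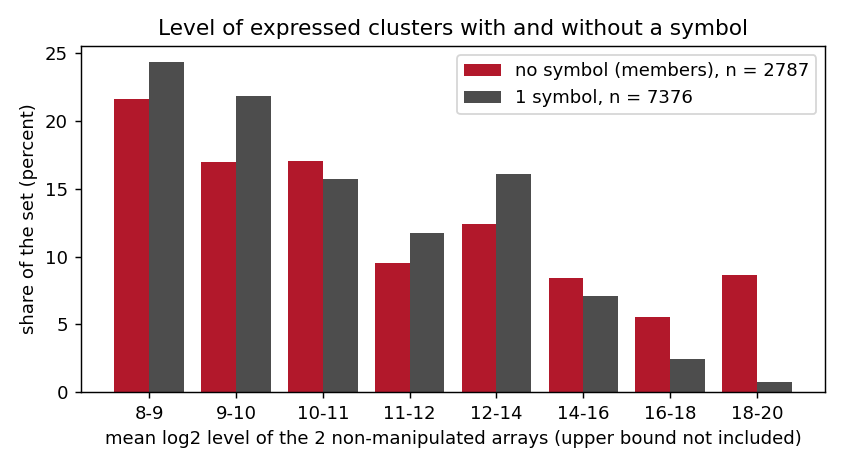
Share of each set of clusters in ranges, wider from 12 upward, of the mean log2 level of the 2 non-manipulated arrays, for the 2787 members without a symbol and the 7376 clusters with 1 symbol at level 8 or more. Members are more frequent than one-symbol clusters in the ranges from 14 upward, and 240 members against 55 one-symbol clusters lie at 18 or more, or 144 against 48 distinct profiles.

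Many members were not separate measurements. The 2787 members had 2391 distinct profiles, and 468 members (16.8%) had exactly the same 8 values as at least 1 other member. Among one-symbol clusters at the same level the share was 2.16%, or 159 clusters. Clusters with identical values lay on many chromosomes. The largest set held 63 members, 1 of them off the chromosomes, whose ids name 17 different chromosomes, the second held 35 members and the third 30. In all, 12 profiles were each shared by 10 or more members and together covered 273. Such members share their signal and are not replicates of one another, so counts below are also given over distinct profiles where that matters. Only 6 members shared all values with a named cluster.

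The 12 largest shared profiles did not follow one course. The largest, which includes TC0100000118, was nearly level: it read 10.91 and 10.71 on the non-manipulated arrays, 10.99 and 11.21 with Trim21 mRNA, 11.43 and 10.87 for full-treatment pools, and 10.50 and 10.40 with antibody alone. Antibody-alone pools lay below the other 6 arrays, and no tested comparison of this profile passed the threshold of limma adjusted p under 0.05.

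A second kind rose with Trim21 mRNA and fell with antibody alone. The profile of 18 members that includes TC0100001325 read 10.47 and 10.30 on the non-manipulated arrays, 11.71 and 11.99 with Trim21 mRNA, 10.90 and 10.55 for full-treatment pools, and 9.11 and 9.75 with antibody alone. No 2 groups among Trim21 mRNA, full treatment and antibody alone overlapped. Antibody alone was -2.42 ± 0.26 (standard error of the fit, n = 2 pools a group) below Trim21 mRNA on the log2 scale, with a limma adjusted p of 0.0031. The full treatment stood between them, -1.13 ± 0.26 against Trim21 mRNA (limma adjusted p = 0.030) and 1.30 ± 0.26 against antibody alone (limma adjusted p = 0.025). Profiles of 35, 13 and 10 members, led by TC0100001122, TC0300000439 and TC0100001321, were also lower with antibody alone than with Trim21 mRNA, by differences of -1.62, -2.36 and -1.84. These 4 profiles were the only ones of the 12 called in that comparison, and without the second Trim21 mRNA pool 1 of the 12 was called.

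A further kind sat at the top of the scale. The profile of 26 members that includes TC0100000722 had the highest mean over all 8 arrays and supplied the 10 members with the highest such mean, all with 19.51 and 19.49 on the non-manipulated arrays, 19.54 and 19.51 with Trim21 mRNA, 19.09 and 18.88 for full-treatment pools, and 19.20 and 19.50 with antibody alone. On 3 arrays the highest value was shared by many clusters: 19.09 by 169 clusters and 18.88 by 151 on the full-treatment arrays, and 19.20 by 136 on the first antibody-alone array. Such a shared maximum is called a ceiling here, and 172 of the 188 clusters that met one were members, in 88 distinct profiles. A difference that involves a ceiling value is bounded by it. The profiles of 13 and 12 members led by TC0100000728 and TC0100000730 were lower with the full treatment than with Trim21 mRNA, by -2.27 ± 0.52 and -1.38 ± 0.16 (limma adjusted p = 0.028 and 0.0015), and both include ids of chromosome 1 and its scaffolds.

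**Figure D2:**
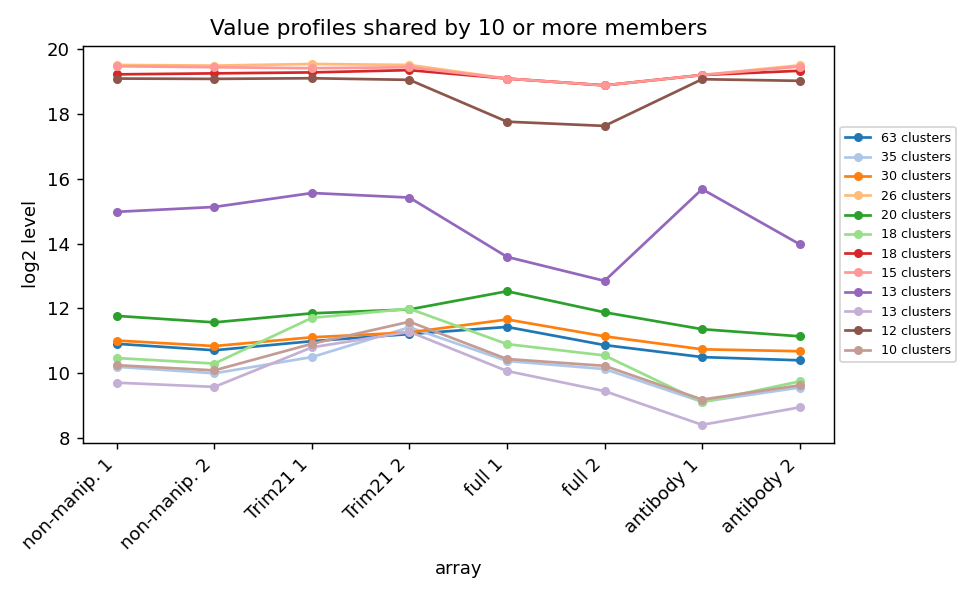
Log2 level on each of the 8 arrays of the 12 value profiles that are each shared by 10 or more members, with 1 line per profile and the number of clusters in the legend. Of the 4 profiles near 19, 3 converge on 19.09 and 18.88 in the full-treatment pools. The profiles of 35, 18, 13 and 10 clusters near level 10 peak with Trim21 mRNA and are lowest with antibody alone.

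Differences between groups were tested for every cluster of the array with limma, and p-values were adjusted over all 65955 clusters. With the full treatment, 812 members were lower and 147 higher than with Trim21 mRNA alone. Those are 29.1% and 5.27% of the members. Over all clusters 8.88% were lower and 5.88% higher, and among one-symbol clusters at level 8 or more 44.6% were lower and 8.45% higher. So on the deposited values fewer members than named clusters of that level were lower, and the share that was higher was near the background. The median member differed by -0.47, the median one-symbol cluster by -0.90 and the median cluster by 0.26. Over distinct profiles the counts were 746 lower and 146 higher of 2391. The share of the calls that were higher was 15.3%, and this split depended on the scaling. Quantile normalization gave 606 higher and 566 lower and cyclic loess 497 and 593, or 51.7% and 45.6% higher. Under these the members' median was 0.013 and 0.017. The share higher was not near the background there. With quantile normalization it was 21.7% of members, 7.09% of all clusters and 21.6% of one-symbol clusters of the level. With cyclic loess these shares were 17.8%, 6.17% and 19.1%. The counts higher and lower were 57 and 493 without the first Trim21 mRNA pool, 59 and 506 without the second, 95 and 557 without the second full-treatment pool, and 378 and 1226 without either antibody-alone pool.

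The gap between members and named clusters widened with level. At levels of 8 to 9 the median difference, full treatment against Trim21 mRNA, was -0.58 for 602 members and -0.48 for 1793 one-symbol clusters. At 10 to 11 it was -0.49 for 474 members, or -0.79 over their 307 distinct profiles, and -1.075 for 1159 one-symbol clusters. At 12 to 14 it was -0.64 for 345 members and -1.42 for 1187 one-symbol clusters. At 16 to 18 it was 0.28 for 155 members and -2.60 for 182 one-symbol clusters, of which 22.6% and 74.2% were lower. Called higher there were 1.29% of the members and 6.59% of the one-symbol clusters. In that range the member median stayed above the one-symbol median under each scaling, at 0.45 against -1.77 with quantile normalization, 0.77 against -2.08 with cyclic loess, and -0.05 against -2.94 with each array centred on its median. At 18 to 20, where ceilings act, the medians were -0.34 and -0.44. Some members at 16 to 18 also met a ceiling, which bounds their difference. One was TC0M00000028, at 17.97 and 17.90 on the non-manipulated arrays and 19.09 and 18.88 with the full treatment. One-symbol clusters with a predicted or clone name are also often poorly characterised. Of those 1759, 50.1% were lower, against 42.9% of the 5617 with another symbol. At low levels their share was near that of the members, with 33.5% against 29.1% at 8 to 9 and 31.9% against 32.4% at 9 to 10. At higher levels they were unlike the members, with 66.8% against 40.0% at 12 to 14 and 80.7% against 22.6% at 16 to 18.

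**Figure D3:**
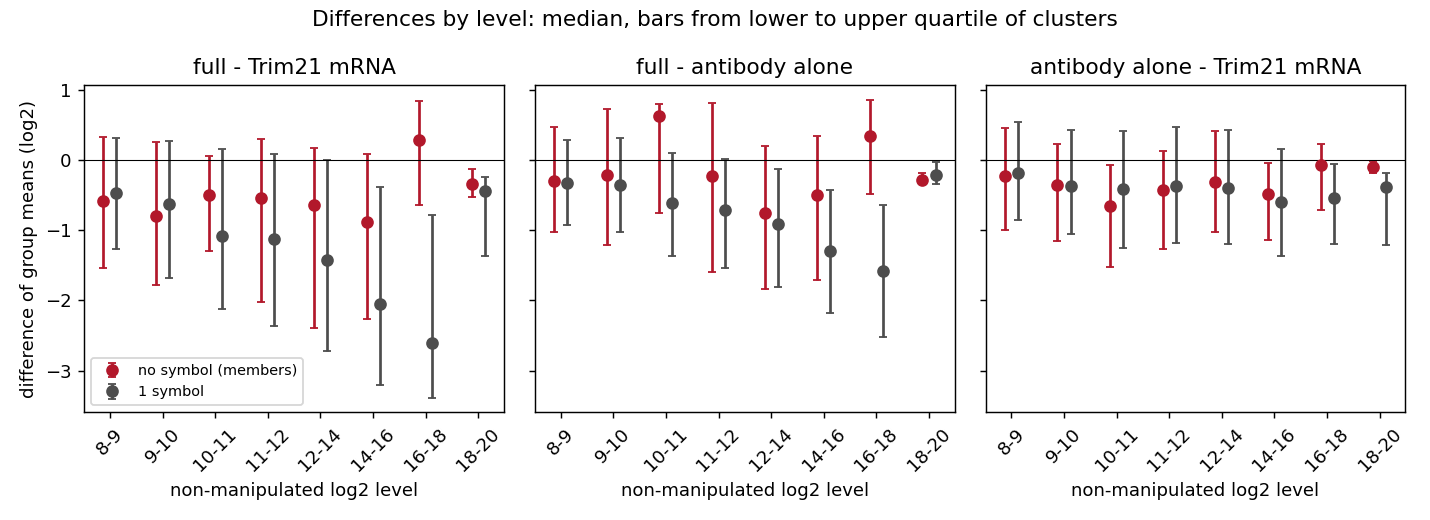
Difference of group means on the log2 scale by range of the non-manipulated log2 level, for members and one-symbol clusters. Points are medians over clusters, bars run from the lower to the upper quartile of clusters, and the 3 panels are the 3 tested comparisons. Members with identical values are each counted. At 10 to 11 the member median for full treatment against antibody alone is 0.63, but -0.335 over distinct profiles. From level 10 to 18 the member median lies above the one-symbol median in the comparison of full treatment with Trim21 mRNA, by the most at 16 to 18.

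Against antibody alone, 565 members were lower and 199 higher with the full treatment, or 20.3% and 7.14%. Over all clusters 5.88% were lower and 2.98% higher, and among one-symbol clusters of the level 31.9% and 4.91%. The members' median difference was -0.24 and that of one-symbol clusters -0.57. Higher calls were 26.0% of the members' calls, and 57.4% with quantile normalization (592 higher, 439 lower) and 53.3% with cyclic loess (529 and 463), where the medians turned to 0.079 and 0.12. Members higher numbered 112 without either non-manipulated pool, 111 without either Trim21 mRNA pool, 98 and 103 without the first or second full-treatment pool, and 505 and 379 without the first or second antibody-alone pool. Members lower numbered 329 without the second full-treatment pool.

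Between antibody alone and Trim21 mRNA, 456 members were lower and 154 higher with the antibody, or 16.4% and 5.53%. Over all clusters 4.7% were lower and 2.72% higher, and among one-symbol clusters of the level 20.6% and 10.6%. The medians were -0.31 for members and -0.34 for one-symbol clusters. Over distinct profiles 373 members were lower. Higher calls were 25.2% of the members' calls, against 37.2% with quantile normalization (218 higher, 368 lower) and 35.4% with cyclic loess (224 and 408). The counts higher and lower were 97 and 298 without either non-manipulated pool, 43 and 219 without the first Trim21 mRNA pool, 29 and 111 without the second, 254 and 764 without the first antibody-alone pool, and 461 and 751 without the second. The 3 comparisons share arrays and are not independent.

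The antibody-alone pools differed most from each other. Of the members, 31.0% were more than 1 log2 unit apart between those 2 pools, against 11.8% between the full-treatment pools, 1.97% between the non-manipulated pools and 1.47% between the Trim21 mRNA pools. One-symbol clusters of the level showed 26.2%, 3.82%, 0.203% and 0.136%. TC0600000382 was the most divided, at 14.15 and 5.46 with antibody alone, 8.82 and 8.70 on the non-manipulated arrays, 9.24 and 9.12 with Trim21 mRNA, and 5.42 and 5.65 with the full treatment. TC0200001511 was split the other way, at 5.94 and 12.52 with antibody alone, after 13.79 and 13.60 on the non-manipulated arrays. TC1000000952 was split like it, at 5.50 and 11.96. No comparison of these 3 members passed the threshold.

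Members were also sorted by which group's 2 pools lay outside the other 6 arrays. The full-treatment pools were lowest for 942 members, or 33.8%, against 9.87% of all clusters and 42.3% of one-symbol clusters of the level. They were highest for 287, or 10.3%, against 18.2% of all clusters and 7.71% of one-symbol clusters of the level. Trim21 mRNA pools were highest for 508 members, or 18.2%, against 4.94% of all clusters and 15.1% of one-symbol clusters. Antibody-alone pools were lowest for 387 members, or 13.9%, against 3.64% of all clusters and 6.85% of one-symbol clusters, and over distinct profiles the share was 7.53% (180 of 2391). Antibody-alone pools were highest for 240 members, or 8.61%, against 6.21% of all clusters and 11.4% of one-symbol clusters. Trim21 mRNA pools were lowest for 115, or 4.13%, against 5.53% of all clusters and 12% of one-symbol clusters.

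The largest single change was a rise. TC1500000290, whose nearest named clusters in the array's numbering are Odf1 and Atp6v1c1, read 10.11 and 10.97 on the non-manipulated arrays, 9.44 and 7.89 with Trim21 mRNA, 15.61 and 12.99 for full-treatment pools, and 18.29 and 18.61 with antibody alone. The 3 injected groups did not overlap, and both antibody groups lay above all 4 arrays without antibody. Antibody alone exceeded Trim21 mRNA by 9.79 ± 0.85 on the log2 scale (limma adjusted p = 0.0018), and the full treatment exceeded it by 5.64 ± 0.85 (limma adjusted p = 0.0051). Odf1, a protein of the sperm tail and one of the sperm markers, did not reach level 8 in any group.

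TC0900002810 rose with the full treatment. It read 9.81 and 9.94 on the non-manipulated arrays, 10.71 and 11.10 with Trim21 mRNA, 15.16 and 15.57 for full-treatment pools, and 10.24 and 12.06 with antibody alone. The full-treatment pools lay above the other 6 arrays, by 4.46 ± 0.53 over Trim21 mRNA (limma adjusted p = 0.0017) and 4.21 ± 0.53 over antibody alone (limma adjusted p = 0.0037). Its numbering neighbours are 9330159M07Rik and Gm2396. On chromosome 5, TC0500000907, next to Pramel44, a member of a gene family known from germ cells and early embryos, read 9.05 and 8.35, then 9.00 and 8.37, then 11.58 and 11.57, then 7.97 and 9.20 in the same order of groups. It rose by 2.89 ± 0.44 over Trim21 mRNA (limma adjusted p = 0.0051). A scaffold cluster of chromosome 5, TC5_JH584299_random00000002, had a similar course and rose by 2.96 ± 0.42 (limma adjusted p = 0.0038). Of the 5 members on scaffolds of chromosome 5, 4 were higher with the full treatment than with Trim21 mRNA, and their median difference was 2.27. Over all clusters 5.88% were higher, and 8.45% of one-symbol clusters of the level.

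A further set rose in both antibody groups. TC1200000543 read 9.71 and 9.44 on the non-manipulated arrays, 9.21 and 9.20 with Trim21 mRNA, 13.06 and 12.76 for full-treatment pools, and 13.71 and 12.61 with antibody alone. Both antibody groups lay above the 4 other arrays and overlapped each other, with differences of 3.71 and 3.96 from Trim21 mRNA (limma adjusted p = 0.00059 and 0.0018). TC1200000540, 3 serial numbers before it, rose by 2.28 with the full treatment and by 3.80 with antibody alone. TC1500002303, which lies in the numbering between Cistr and Hotair, both genes of long noncoding RNAs, rose by 3.08 and 4.12 from 9.12 and 9.29 with Trim21 mRNA. TC1300000447, with Bmp6, the gene of a bone morphogenetic protein, as its named neighbour, rose by 2.60 and 4.57.

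On chromosome 18, TC1800000845, TC1800000847 and TC1800000848 moved in parallel. TC1800000847 read 12.39 and 12.37, 11.29 and 11.43, 13.62 and 13.05, and 15.25 and 14.90 in that order of groups. No groups overlapped, and the order was antibody alone, full treatment, non-manipulated, Trim21 mRNA. The antibody-alone differences from Trim21 mRNA of the 3 clusters were 3.65, 3.71 and 3.69, each with a standard error of 0.23 or 0.24.

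The largest falls occurred with the full treatment. TC0700003533 read 14.42 and 14.80 on the non-manipulated arrays, 13.76 and 13.10 with Trim21 mRNA, 6.19 and 5.58 for full-treatment pools, and 13.49 and 12.44 with antibody alone. The full-treatment pools lay more than 6 log2 units below the lowest other array. The difference was -7.55 ± 0.41 against Trim21 mRNA (limma adjusted p = 0.00011) and -7.08 ± 0.41 against antibody alone (limma adjusted p = 0.00034). Its numbering neighbours TC0700003532 and TC0700003534 fell with it, by -6.00 ± 0.40 and -5.30 ± 0.52 against Trim21 mRNA (limma adjusted p = 0.00017 and 0.00071). In all 3 clusters the antibody-alone and Trim21 mRNA values overlapped, and that comparison was not called. They lie in the numbering between AU020206 and Gm5597.

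Other members followed the same course. TC0700001677, numbered near Sox6os, read 15.47 and 15.37, 15.29 and 15.48, 8.68 and 7.51, and 13.74 and 14.59 in the 4 groups, and fell by -7.29 ± 0.42 against Trim21 mRNA (limma adjusted p = 0.00012). TC0600003118, between Lrrc23 and Tpi1, the gene of the glycolytic enzyme triosephosphate isomerase, was at 11.30 to 11.88 on the 6 other arrays and at 6.27 and 5.90 with the full treatment. Its difference from antibody alone was -5.41 ± 0.21 (limma adjusted p = 0.00017). TC1500000052, between Gdnf and Nup155, fell from 16.11 and 16.12 to 10.77 and 9.80. TC0900000624 fell from 11.01 and 11.08 to 5.47 and 5.30. All of these had full-treatment pools below every other array. TC0100003151, numbered near Nr5a2, the gene of a nuclear receptor active at this stage, had 12.16 and 12.23 with Trim21 mRNA, 6.35 and 6.19 for full-treatment pools, and 10.66 and 8.64 with antibody alone. It was lower in both antibody groups than with Trim21 mRNA, by -5.92 ± 0.56 and -2.54 ± 0.56 (limma adjusted p = 0.00062 and 0.038). TC0300000692 and TC1600000210 had the same 8 values and count as 1 measurement, with a fall of -5.96 ± 0.77 (limma adjusted p = 0.0024).

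Another set fell by similar amounts in both antibody groups. TC0700002679, next to Zfp974, a zinc finger gene, read 9.49 and 9.79 on the non-manipulated arrays, 10.82 and 10.95 with Trim21 mRNA, 5.12 and 4.84 for full-treatment pools, and 4.37 and 5.46 with antibody alone. The antibody groups overlapped each other and lay below the other 4 arrays, and they differed from Trim21 mRNA by -5.91 ± 0.35 and -5.97 ± 0.35 (limma adjusted p = 0.00012 and 0.00086). TC0700000213, between Obox5 and Crxos, both homeobox genes of the oocyte and early embryo, went from 11.05 and 11.11 with Trim21 mRNA to 5.63 and 6.37 with both agents and 5.02 and 6.79 with the antibody only. TC0800000460, TC0800001820 and TC1500000228 had the same course, with differences from Trim21 mRNA of -4.71, -4.70 and -4.62 with both agents and -4.86, -4.71 and -4.43 with the antibody only. TC0100000001, the first cluster of chromosome 1 in the numbering, fell by -5.34 and -5.97. For these 6 members the difference between the full treatment and antibody alone lay between -0.19 and 0.64, and it was not called. Readings near the floor cannot show that 2 groups fell equally. Those of TC0700002679 in the antibody groups were close to the median over all clusters, which was 4.75 to 5.29 per array. TC0100000001 lost its antibody-alone call without the second Trim21 mRNA pool.

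Antibody alone stood apart in further members. TSUnmapped00000095, which has no chromosome, read 17.48 and 17.45, 18.26 and 18.56, 17.78 and 17.62, and 13.55 and 14.06, so that antibody alone lay below all 6 other arrays, by -4.61 ± 0.22 against Trim21 mRNA (limma adjusted p = 0.00072). TC0500001565, numbered near Rfc2, a replication factor gene, read 11.64 and 11.81, 12.71 and 13.00, 15.61 and 14.75, and 9.92 and 7.93. It exceeded antibody alone by 6.26 ± 0.60 with the full treatment (limma adjusted p = 0.0014), and no groups overlapped.

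**Figure D4:**
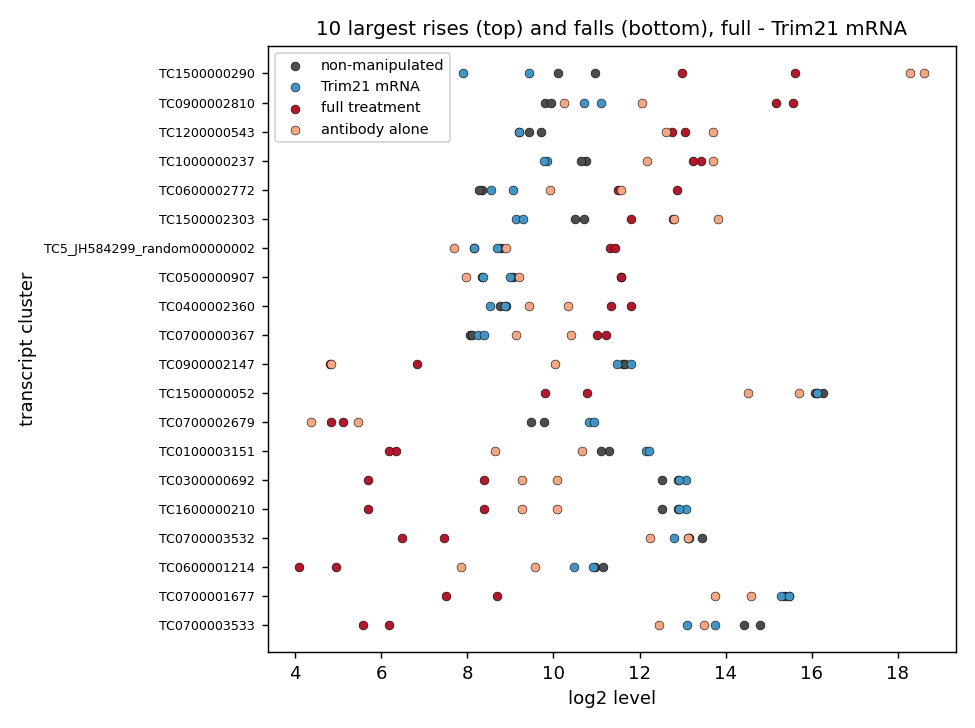
Log2 level of each of the 8 pools, coloured by group, for the 10 members with the largest rises and the 10 with the largest falls of full treatment against Trim21 mRNA among those called. TC0700003533 lies at 6.19 and 5.58 with the full treatment and above 12 in every other pool, and TC1500000290 is highest with antibody alone.

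Mitochondrial ids were described as a group. All 19 clusters on the mitochondrial genome without a symbol were members, beside 11 with 1 or more symbols. Their median per array was 14.74 and 14.55 on the non-manipulated arrays, 15.67 and 16.15 with Trim21 mRNA, 17.67 and 18.17 for full-treatment pools, and 13.86 and 12.86 with antibody alone. The medians of the 11 named clusters lay between 18.06 and 19.04 on all 8 arrays, close to the ceilings of 19.09, 18.88 and 19.20, which bound any rise of theirs on 3 arrays. Against antibody alone, 14 of the 19 were higher with the full treatment and 0 lower, with a median difference of 3.26. Against Trim21 mRNA, 7 were higher and 0 lower, with a median of 1.34. With antibody alone 10 were lower than with Trim21 mRNA and 0 higher, with a median of -2.34. In these 3 directions the shares called were 2.98%, 5.88% and 4.7% over all clusters. Among one-symbol clusters at level 8 or more they were 4.91%, 8.45% and 20.6%. For the 11 named mitochondrial clusters the medians were -0.13, -0.15 and 0.16, and the calls were 1 higher and 1 lower, none, and 1 lower. Some members met the ceiling with the full treatment, which bounds their rise. The 7 higher calls became 8 with quantile normalization, 10 with cyclic loess, and 6 higher and 1 lower with median centring. They numbered 2 without the first Trim21 mRNA pool, 3 without the second full-treatment pool, and 11 without either antibody-alone pool.

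The serial numbers give the order of the clusters on the array, which is not read here as 1 continuous order along the genome. Serials 1 to 16 hold the named heavy-strand genes in their order, from mt-Rnr1, a ribosomal RNA, to CYTB and ND5, a cytochrome and a subunit of complex I. From serial 17 on, the only named cluster is ND6, the protein gene coded on the light strand, and the other 13 are members. Of these 13, 7 were higher with the full treatment than with Trim21 mRNA (median 1.85), 11 were higher than with antibody alone (median 4.38), and 7 were lower with antibody alone than with Trim21 mRNA. The shares called over all clusters were 5.88%, 2.98% and 4.7% in this order. TC0M00000023 read 11.07 and 11.24 on the non-manipulated arrays, 11.70 and 12.21 with Trim21 mRNA, 13.61 and 14.60 for full-treatment pools, and 8.27 and 8.22 with antibody alone. No groups overlapped. It rose by 2.15 ± 0.34 over Trim21 mRNA (limma adjusted p = 0.0059) and stood 5.86 ± 0.34 above antibody alone (limma adjusted p = 0.00034). TC0M00000025 rose with the full treatment, 14.37 and 14.89 against 12.02 to 12.40 on the other 6 arrays, with no drop in antibody alone called (-0.30 ± 0.21, limma adjusted p = 0.47). TC0M00000030 was flat at 18.75 to 19.08.

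Of the 6 members with serials below 17, 0 were called in the full treatment against Trim21 mRNA (median -0.08), 3 were higher against antibody alone, and 3 were lower with antibody alone than with Trim21 mRNA. TC0M00000001 fell with antibody alone, from 18.27 and 18.62 with Trim21 mRNA to 15.06 and 14.65, by -3.59 ± 0.22 (limma adjusted p = 0.00089). It read 19.01 and 18.88 with the full treatment, the latter at the ceiling. ND2, a complex I subunit and the named exception, fell likewise from 18.33 and 18.36 to 16.38 and 16.19. ND6 itself read 12.82 and 13.26, 13.84 and 14.29, 15.20 and 14.71, and 14.67 and 12.23 in the 4 groups, with the same order of the first 3 groups as the members around it but with no call.

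**Figure D5:**
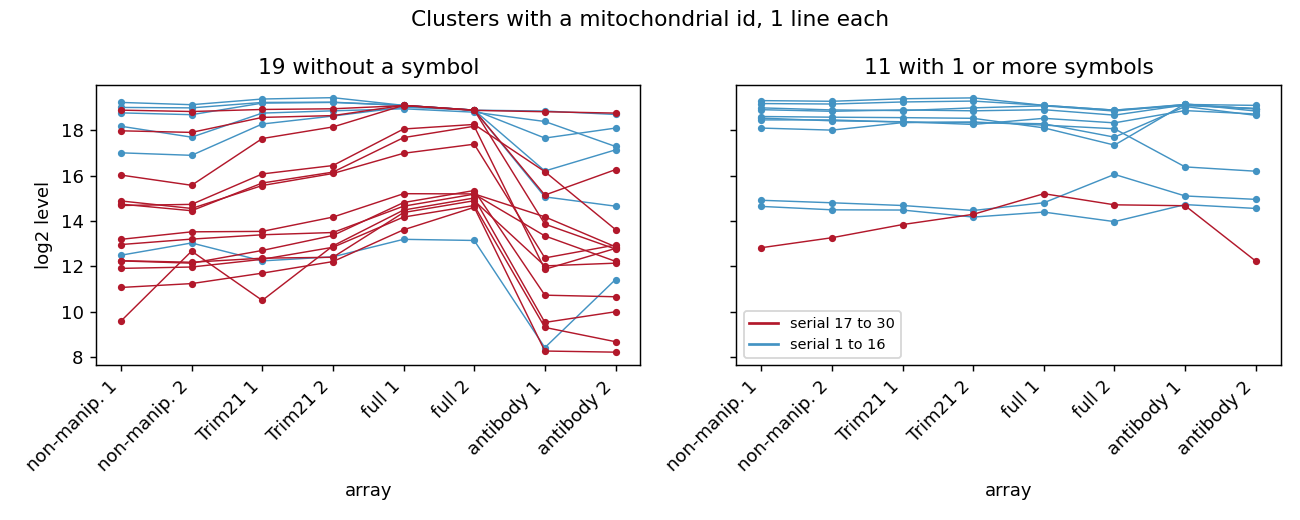
Log2 level on the 8 arrays of the 30 clusters with a mitochondrial id, 1 line each, for the 19 without a symbol at left and the 11 with symbols at right. Red lines are serials 17 to 30 and blue lines 1 to 16. Most red lines at left rise to the full treatment and drop with antibody alone, while most named clusters stay near 18 to 19.

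Members with neighbouring serials on chromosome 1 also formed a block. A run from serial 736 to 755 held 12 members and a run from 2706 to 2727 held 15, with named neighbours that include Csprs and Sp110, genes of a repeated cluster on this chromosome. The scaffolds assigned to chromosome 1 held 47 more members, of which 21 had exactly the values of a member in these runs. Together these 74 members had 34 distinct profiles, so many of them returned one and the same signal and the 74 cannot be read as separate genes. With the full treatment 43 of the 74 were lower than with Trim21 mRNA and 0 higher, with a median difference of -1.62, and over the 34 distinct profiles 18 were lower. Over all clusters 8.88% were lower. Among one-symbol clusters the share was 56.2% at levels of 12 to 14, 66.0% at 14 to 16, 74.2% at 16 to 18 and 40.0% at 18 to 20. On the deposited values the block's share thus lay within the span of named clusters as bright. With quantile normalization and cyclic loess, 31.9% and 33.3% of one-symbol clusters at level 8 or more were lower, and the block's counts under these scalings follow below. One profile met in the block was shared by 12 members in all and is led by TC0100000730, which is numbered outside both runs. Of these 12, 6 are off the chromosomes, and the ids of the others name 2 chromosomes. The profile read 19.09 and 19.08, 19.10 and 19.05, 17.76 and 17.63, and 19.07 and 19.02. Only the full treatment was lower, by -1.38 ± 0.16 (limma adjusted p = 0.0015). TC0100000738 fell the most, from 13.36 and 13.35 with Trim21 mRNA to 9.12 and 8.00, with 13.52 and 12.19 in antibody alone. The exception was TC0100002713, which read 9.28 and 9.40 with Trim21 mRNA and 10.27 and 10.26 with the full treatment. The count of 43 became 23 with quantile normalization or cyclic loess, and 23 without either Trim21 mRNA pool or the second full-treatment pool. It became 28 without either non-manipulated pool and 73 without either antibody-alone pool.

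Whether a member moved with its named neighbour was described over the 2546 members (91.4%) that had a one-symbol cluster within 3 serial numbers. Of the 743 such members that were lower with the full treatment than with Trim21 mRNA, 22.9% had a nearest named cluster that was also lower, against 14.7% for the 1673 members without a call. Of the 130 that were higher, 10.8% had a higher neighbour, against 5.98%, and 16.2% had a lower one. For full treatment against antibody alone, 16.7% of the lower members had a lower neighbour, against 11.8% of those without a call, and 6.15% of the higher members had a higher one, against 2.58%. For antibody alone against Trim21 mRNA the shares were 9.15% against 7.53%, and 7.80% against 5.61%. So most changed members were numbered beside a named cluster that was not called in the same direction. No level was required of the neighbour, and 23.6% of all one-symbol clusters reached level 8, so many neighbours may lie too low to be called lower. These shares are a description, because neighbouring clusters can share a transcript.

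Differences from the non-manipulated arrays were not tested. The median member differed by 0.11 with Trim21 mRNA, -0.20 with antibody alone and -0.37 with the full treatment, and the median one-symbol cluster of the level by -0.17, -0.45 and -1.03. Both sets were chosen for a high value on the arrays of reference. TC1300000751 had the largest difference with Trim21 mRNA, from 12.16 and 11.59 to 14.15 and 14.56, and it read 11.53 and 11.74 for full-treatment pools and 10.58 and 9.63 with antibody alone. At least 1 log2 unit up with Trim21 mRNA were 5.42% of members, or 4.31% over distinct profiles, 1.22% of one-symbol clusters and 0.738% of all clusters. Members also varied more between the 2 non-manipulated pools, with 1.97% against 0.203% of one-symbol clusters more than 1 log2 unit apart. TC0500003033, numbered among Mir7229 and Mir7230, both microRNA genes, went from 9.03 and 9.23 to 10.88 and 10.89 with Trim21 mRNA, 12.72 and 13.45 for full-treatment pools, and 13.91 and 12.47 with antibody alone.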

How the data were processed

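RNA of pooled mouse embryos was hybridised to 8 whole-transcript arrays, 2 per group. The authors deposited log2 values per transcript cluster, made with Affymetrix Expression Console per the submitters' processing notes; for the summarisation method, normalization and genome build, details were not given in the sources used here. The first non-manipulated column also held 1 value that is not on the log2 scale as deposited by the authors, of another unit, and that cluster, which had a symbol, was dropped by the limit of 100, leaving 65955 of 65956. Values were used as deposited. Symbols came from the platform annotation, where 31257 clusters have 1 symbol, 1492 several and 33206 none. Chromosome codes in the ids equalled the RefSeq chromosome for 99.7% of 31045 named clusters, and 99.1% of neighbouring serials had rising starts. Coordinates and sequences of the members were not used here.

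Group differences were contrasts of 4 group means over all 8 arrays in limma 3.58.1 (R 4.3.3; lmFit, eBayes), two-sided, with Benjamini-Hochberg adjustment over 65955 clusters and a call at adjusted p under 0.05. The fit had 4 residual and 7.18 total degrees of freedom, and the number of arrays limits the precision. For a single value, an exact permutation test of 2 against 2 cannot go below p = 0.3333. Errors are standard errors of the fit. In simulated data for full treatment against Trim21 mRNA with 65955 clusters, 0 of 67 clusters changed by 1 log2 unit were called, 30 of 67 changed by 2, and 50 of 66 changed by 3, with 3 unchanged clusters called. Only these clusters were changed, whereas the real comparison called 3880 clusters higher and 5854 lower. The adjustment was therefore stricter in the simulation, and its shares do not give the sensitivity of the reported fit. Named members are the 10 largest called rises and falls of each comparison whose pools do not overlap, the 10 brightest, the 5 steadiest, the 3 largest differences from non-manipulated arrays in each direction, the 3 with the widest antibody-alone gap, and those next to the level threshold; shared profiles, runs and mitochondrial ids were added after their values were seen. Members and lists were chosen with earlier results of these data known. Alternatives covered scaling, filters, variance model, array weights, arrays fitted, thresholds and each array left out.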

Additional observations from a re-analysis of the deposited data

Results flagged for a closer look

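Among the 76 members singled out by rule, 8 had differences of opposite sign for the antibody with and without Trim21 mRNA: every full-treatment pool lay on one side of the Trim21 mRNA pools and every antibody-alone pool on the other side of the non-manipulated pools. All 8 had been singled out for a large difference between the full treatment and antibody alone, a choice that favours opposite signs. The count of 8 therefore does not show how common such members are, and no share over all members was taken. The difference between the 2 effects was not tested, and the non-manipulated arrays also chose the members. TC0M00000020 and TC1600000786 were not called for full treatment against Trim21 mRNA (limma adjusted p = 0.098 and 0.092). For 5 mitochondrial clusters the log2 difference with Trim21 mRNA present was 1.10 (TC0M00000020), 2.01 (TC0M00000022), 2.15 (TC0M00000023), 1.85 (TC0M00000024) and 1.36 (TC0M00000029). Without it the differences were -2.49, -2.27, -2.91, -2.95 and -2.06. TC0500001565 gave 2.33 with Trim21 mRNA and -2.80 without it, and TC1600000786 gave 1.63 and -2.02. TC1000002302 went the other way, with -2.03 and 2.07.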

How the results depend on the processing

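Counts of members are given as higher and lower, for full treatment against Trim21 mRNA, full treatment against antibody alone, and antibody alone against Trim21 mRNA in that order, with 147 and 812, 199 and 565, and 154 and 456 as reported. Quantile normalization gave 606 higher and a median of 0.013, then 592 and 0.079, then a median of -0.12. Cyclic loess gave 497 and 0.017, then 529 and 0.12, then -0.15. Median centring gave 96 higher and a median of -0.81, then -0.41, then -0.48. Array weights gave 285 higher, then 55 and 299, then 77 and 272, and fitting only the compared groups gave 324 higher, then 45 and 211, then 43 and 133. Testing only clusters with a mean of 6 or more gave 304 higher in the second comparison. A level of 7 gave 223 higher in the first and a level of 9 gave 96, with 102 higher in the third. With 1 value per distinct profile, added after the data were seen, the third median was -0.25. Leaving out 1 array gave 57 to 378 higher and 493 to 1226 lower, then 98 to 505 and 329 to 840, then 29 to 461 and 111 to 764. Deviations of pools with the same replicate number correlated by -0.149 to 0.08 between groups over all clusters. A low correlation over all clusters cannot exclude that same-numbered pools shared a step. The chromosome 9 clusters described below had the second pool higher in every group except antibody alone. With the replicate number as a block the counts were 122 and 747, 167 and 532, and 136 and 409. Of the 60 tests of singled-out members, 50 kept their call under every alternative that was run and 0 changed direction. The other 10 each lost the call under at least 1. Values at a ceiling limit differences of the brightest members, and the number of arrays limits the precision of the rest.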

Other observations

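Members were unevenly spread over the chromosomes named in their ids. On the autosomes they made up from 5.77% (chromosome 14) to 10.7% (chromosome 4) of the clusters without a symbol. On X they made up 12.7% (175 of 1375), on Y 3.33% (10 of 300), and on scaffolds 59.4% (60 of 101). All 8 clusters numbered 1 to 8 on chromosome 9 were members, with 8 distinct profiles that ran in parallel. TC0900000003 read 14.17 and 18.56 on the non-manipulated arrays, 15.92 and 18.55 with Trim21 mRNA, 16.37 and 17.30 in full-treatment pools, and 16.53 and 16.21 with the antibody only. In all 8 clusters the second pool was higher than the first in the non-manipulated, Trim21 mRNA and full-treatment groups, and the first was higher than the second with antibody alone. None was called in any comparison by limma.

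A few members hardly moved. TC1500001861 stayed between 16.04 and 16.22 on the 8 arrays, TC1100000299 between 15.48 and 15.68, and TC0100002795 between 11.71 and 11.94. TC0700004092 stayed between 18.66 and 18.90, and TC0900000451 between 16.26 and 16.52.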
